A study of Mus musculus with 18 samples.

Results

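The dual-specificity phosphatases (DUSP) and the non-receptor protein tyrosine phosphatases (PTPN) were examined in RNA-seq of sorted mouse regulatory T cells (Treg). Members were all rows of the count table whose symbol was Dusp or Ptpn followed only by a number. The rule found 41 genes of 23420, 24 DUSP and 17 PTPN, and 29 of them (15 DUSP, 14 PTPN) had enough counts to be tested. The libraries came from mice of 3 genotypes, labelled FCre x C1+/+, FCre x C1fl/+ and FCre x C1fl/fl and written here as +/+, fl/+ and fl/fl. All 3 genotypes carry FCre, and the labels do not spell out its promoter. Each genotype was sorted as resting cells (cTreg) and as effector cells (eTreg), with 3 libraries per group, 18 in all, numbered 1 to 3 by what the labels call the batch. The labels name no age, sex or gate for the sort. Nothing states that the 3 libraries of a group came from different mice, and p-values therefore measure only the spread between libraries, which may be technical.

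Phosphatases of these families switch off signals that start at the T cell receptor, at cytokine receptors and in the MAP kinase cascades. The classical DUSPs remove phosphates from both the threonine and the tyrosine of ERK, JNK or p38, and several of them are themselves induced by the kinases they inactivate. Many PTPNs act closer to the membrane, on Src family kinases, ZAP-70, JAK and STAT proteins and adaptors, and most of them are brakes, with Ptpn11 (SHP-2) known as a positive regulator of RAS and ERK signalling in many cells.

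The libraries held 1658053 to 5756904 expected counts, and 3 counts corresponded to between 0.495 and 1.81 CPM (counts scaled to a common library size by TMM) depending on the library. The Treg list (Foxp3, Il2ra, Cd4, Cd3e, Ctla4 and Ikzf2) was detected in all libraries, with a summed level of 1930 to 3378 CPM. Summed markers of B cells were at 9.36 to 76.0 CPM, of myeloid cells at 64.7 to 103 CPM, of dendritic cells at 2.15 to 8.52 CPM and of CD8 or NK cells at 43.6 to 110.4 CPM. Most of the myeloid sum was 1 gene, Cst3. In +/+ resting and effector cells the sum averaged 67.5 and 98.6 CPM. Of this Cst3 held 63.2 and 91.5 CPM, and Lyz2 held 1.35 and 4.11 CPM. Some libraries stood apart. On the first principal component of the 1000 most variable genes, effector fl/fl libraries 1, 2 and 3 lay at 28.2, 2.20 and 11.6, and the effector libraries of the other genotypes lay at 24.8 to 40.9. Among resting libraries, which otherwise spanned -37.3 to -22.3, fl/fl library 1 lay at -12.6.

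A window before 1 RefSeq start site is shown for each of 3 phosphatases, Ptpn5, Ptpn22 and Ptpn11. Each of these genes rose in +/+ effector cells in all of the fits described here, and each window overlaps no annotated exon. The 250 bases before a RefSeq start site are given 5′ to 3′ on the gene's strand, in build GRCm38.p6, and capitals mark a match to a searched motif. The Ptpn5 window is chr7:47133685-47133934 on the minus strand, the Ptpn22 window chr3:103859545-103859794 on the plus strand and the Ptpn11 window chr5:121191398-121191647 on the minus strand. The Ptpn5 and Ptpn22 windows lie within the annotated span of their gene, and the Ptpn11 window lies outside it. Another Ptpn22 start has a window, chr3:103860027-103860276, that also overlaps no exon and is not shown.
Ptpn5: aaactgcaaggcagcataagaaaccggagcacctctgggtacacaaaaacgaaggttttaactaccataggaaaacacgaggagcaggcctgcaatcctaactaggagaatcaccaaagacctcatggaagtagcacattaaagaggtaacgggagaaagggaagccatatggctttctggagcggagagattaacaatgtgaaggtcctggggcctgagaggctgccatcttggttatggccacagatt
Ptpn22: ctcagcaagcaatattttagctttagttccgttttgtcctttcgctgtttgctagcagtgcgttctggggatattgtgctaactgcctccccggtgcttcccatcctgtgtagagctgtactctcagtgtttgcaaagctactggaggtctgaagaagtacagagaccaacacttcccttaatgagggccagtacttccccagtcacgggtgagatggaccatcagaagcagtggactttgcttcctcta
Ptpn11: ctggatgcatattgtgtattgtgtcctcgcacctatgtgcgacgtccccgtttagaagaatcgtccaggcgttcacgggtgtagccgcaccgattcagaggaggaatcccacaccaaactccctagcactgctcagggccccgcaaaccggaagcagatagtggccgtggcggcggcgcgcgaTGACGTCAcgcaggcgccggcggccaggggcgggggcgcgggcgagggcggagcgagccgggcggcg
The capitals in the Ptpn11 window are the cyclic AMP response element TGACGTCA, a palindrome that begins 67 bases before the start site. The windows of 25 of the 29 tested genes, 29 promoters, were searched on both strands. This element was in 2 of them (Ptpn11 and Dusp1) and in 1.55% of all 32851 promoters of the same length. The AP-1 site TGANTCA was in none of the 29 and in 6.75% of all promoters, the EGR site GCGTGGGCG in none and in 0.536%, and a kappaB site in 2 (Dusp22 and another start of Ptpn5) and in 7.25%. A match describes letters and not binding.

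Levels differed widely between members. They are compared per length, as the deposited FPKM averaged over the 18 libraries. Ptpn6 (SHP-1), an inhibitor of antigen receptor signalling, was highest at 179 FPKM (range 154 to 216), followed by Ptpn18, a PEST-type phosphatase, at 155 (128 to 191). These ranges overlapped. Dusp1, Ptpn7 and Ptpn22 followed at 89.5, 88.5 and 79.4 FPKM with overlapping ranges, and then Ptpn2 at 59.6 and Ptpn1 at 49.9. Among the MAP kinase phosphatases other than Dusp1, Dusp2 was at 18.2, Dusp10 at 17.8, Dusp6 at 17.1, Dusp4 at 8.83 and Dusp5 at 5.84 FPKM. The lowest of the tested members was Dusp16, a JNK and p38 phosphatase, at 0.523 FPKM. Dusp3, Dusp18, Ptpn3 and Ptpn14 were too low to judge, with at most 2.65 CPM in a library, and so were Dusp8, Dusp9, Dusp13, Dusp15, Dusp26 and Dusp27, with at most 0.769 CPM. Dusp21 and Ptpn20 had no count in any of the 18 libraries.

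**Figure D1:**
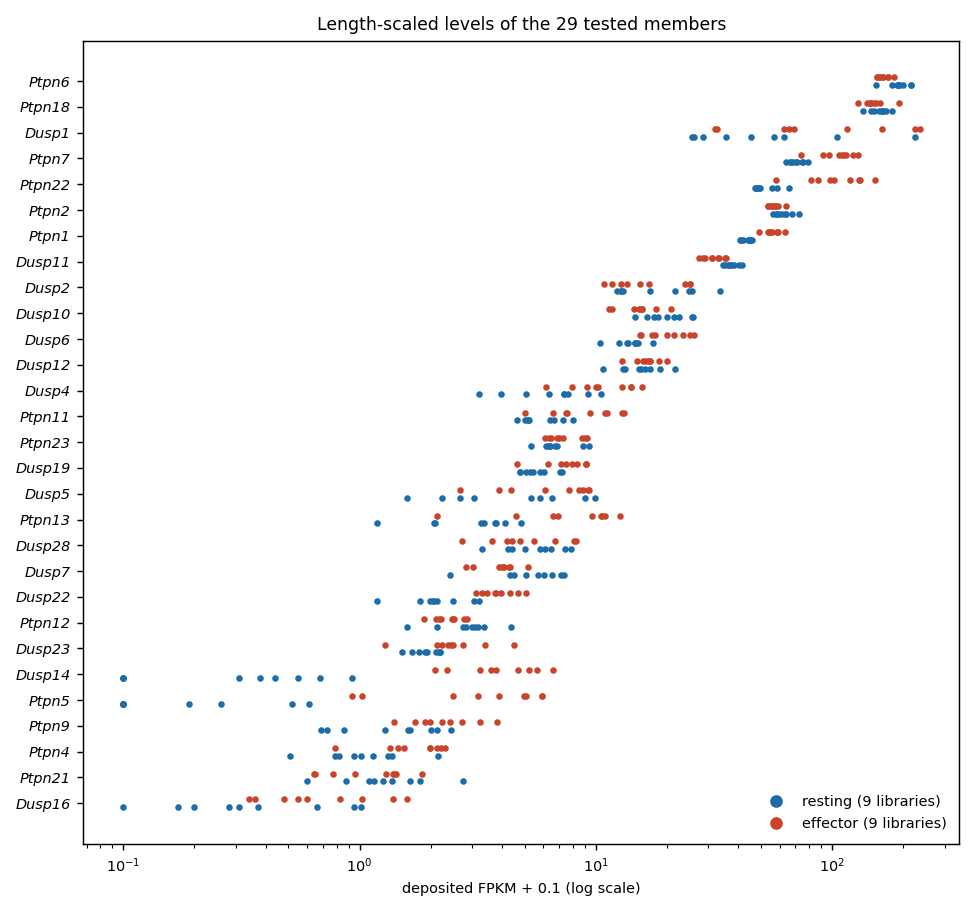
Deposited FPKM plus 0.1, on a log axis, of the 29 tested members in each of 18 libraries, resting in blue and effector in red, ordered by the mean. Ptpn6 and Ptpn18 lead at means of 179 and 155 FPKM, and Ptpn5 and Dusp14 have no resting library that reaches an effector library.

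The comparison of effector with resting cells within a genotype gave the most differences. In +/+ cells 9 of the 29 tested members were called at an adjusted p under 0.05, 8 higher and 1 lower in effector cells, which is set against 16% of all genes tested (9.49% higher and 6.5% lower). In fl/+ cells 11 members were called, 7 higher and 4 lower, against 16.3% of genes (9.72% higher, 6.58% lower). In fl/fl cells 3 members were called, all higher, against 6.34% of genes (5.01% higher, 1.33% lower). With the block for replicate number within genotype, 8 were called in fl/fl, 6 higher and 2 lower, against 10.1% of genes. Leaving out 1 library gave 0 to 6 members in fl/fl, in fits that called 267 to 791 of all genes. On the FPKM scale (limma-trend, pseudocount 1), the calls were 8 higher and none lower in +/+ and in fl/+, and 3 higher and none lower in fl/fl. There 16.8%, 15.4% and 6.74% of genes were called, 1330 higher and 459 lower in +/+, 1233 and 401 in fl/+ and 662 and 54 in fl/fl, against 1009 and 691, 1033 and 699, and 533 and 141 on counts. All 4 lower calls in fl/+ and the 1 in +/+ were lost on that scale. The median log2 change of the tested members was 0.40, 0.26 and 0.16 in +/+, fl/+ and fl/fl, and that of all genes was -0.01 in each. Members passed the filter through their highest group, so these counts cover only genes that some group expressed. In bulk RNA, a change in the share of cells of a kind and a change in RNA per cell cannot be told apart. Summed proliferation markers were at 22.7 to 91.9 CPM in resting libraries and at 121 to 502 CPM in effector libraries, and their part in the member changes was not tested.

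**Figure D2:**
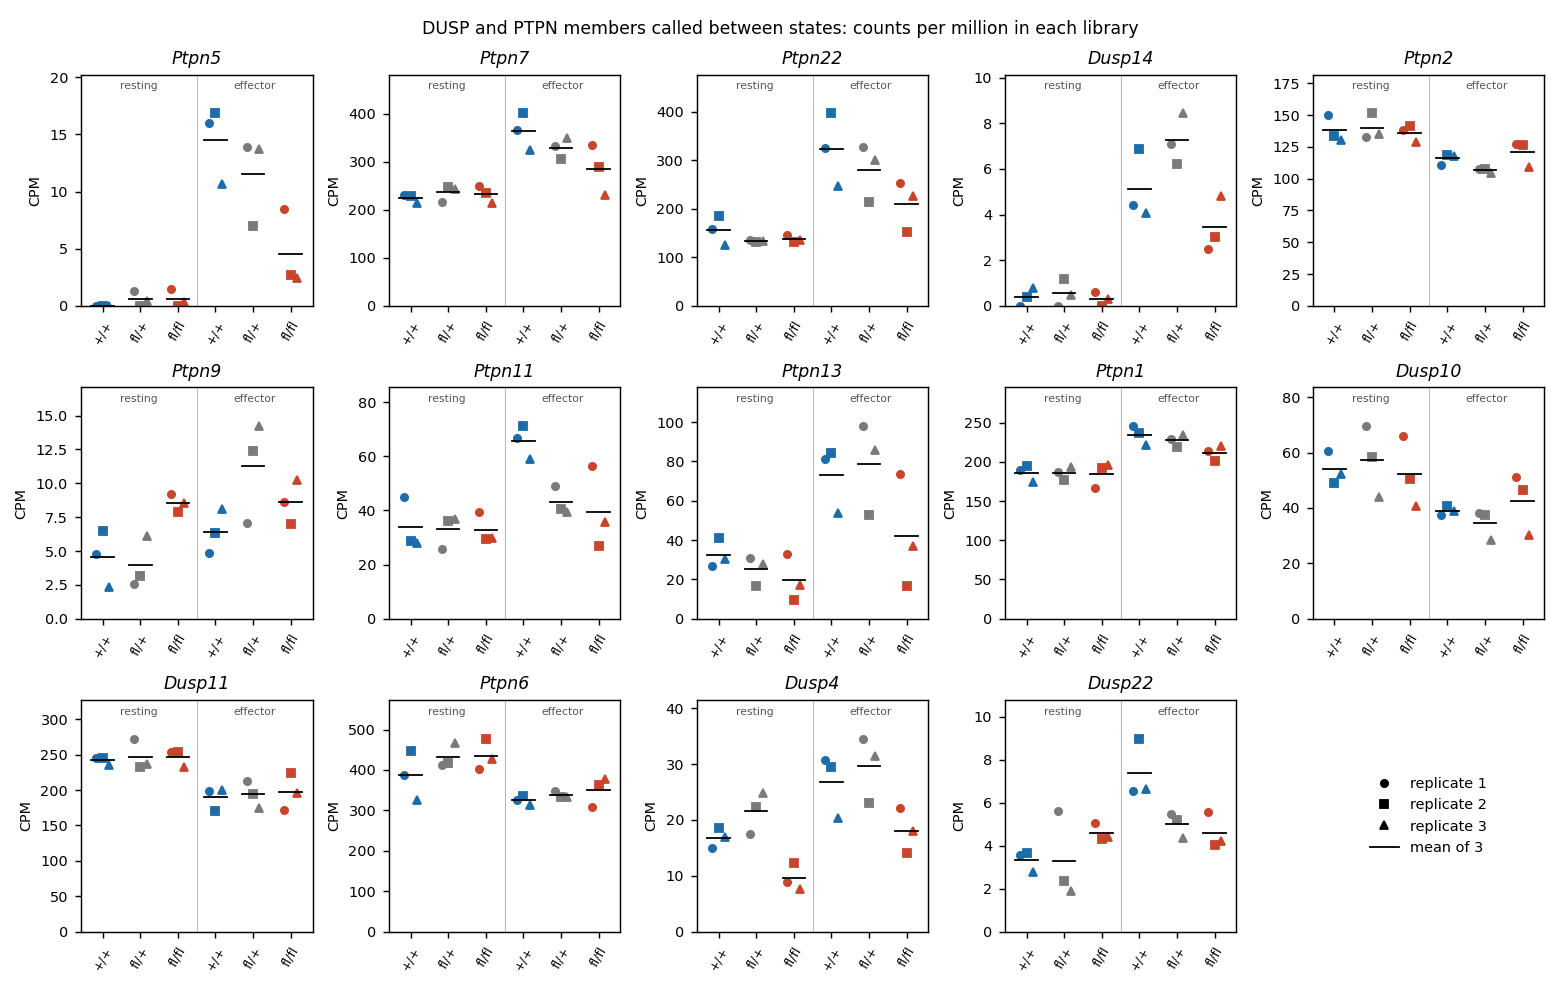
CPM of the 14 members called between states in at least 1 genotype, one panel each, with the 3 libraries of each group as points and their mean as a line. The vertical axis starts at 0 in every panel, and the Ptpn5 and Dusp14 points of all resting libraries lie at or below 1.49 CPM.

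The PTPNs that dock on MAP kinases through a kinase interaction motif, Ptpn5 and Ptpn7, were among the members that rose. Ptpn5 (STEP; chr7:47077795-47134026, minus strand) dephosphorylates ERK and p38 and is best known from neurons. It had no count in the 3 resting +/+ libraries and was at 1.29, 0 and 0.468 CPM in resting fl/+ and 1.49, 0 and 0.295 CPM in resting fl/fl libraries. In effector cells it was at 16.0, 16.9 and 10.7 CPM in +/+, at 13.9, 6.97 and 13.8 CPM in fl/+ and at 8.46, 2.68 and 2.41 CPM in fl/fl. Effector and resting libraries did not overlap in any genotype. Over the pooled counts of the group, Ptpn5 in +/+ effector cells was at least 43.8-fold higher than the level of 3 counts in the resting group (0.335 CPM), and the call had an adjusted p of 6.77e-05. In fl/+ the pooled ratio was 15.9 (95% interval from counting error alone 7.56 to 40.2, adjusted p = 0.000729) and in fl/fl it was 9.04 (3.90 to 25.7, adjusted p = 0.0281). The fl/fl call was lost when any of 3 libraries was left out. The adjusted p was 0.327 without effector replicate 1, 0.109 without resting replicate 2 and 0.128 without resting replicate 3.

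Ptpn7 (HePTP; chr1:135131838-135145328, plus strand), the blood cell relative of Ptpn5 that acts on ERK and p38, was abundant in both states. Resting libraries held 232, 229 and 213 CPM in +/+, 217, 248 and 244 in fl/+ and 249, 234 and 214 in fl/fl. Effector libraries held 368, 402 and 325 CPM in +/+, 333, 306 and 349 in fl/+ and 336, 289 and 231 in fl/fl. The states were apart in +/+ and fl/+ and overlapped in fl/fl. Ptpn7 rose by 0.70 (log2, SE 0.12, adjusted p = 0.000314) in +/+ and by 0.48 (SE 0.11, adjusted p = 0.00617) in fl/+. In fl/fl the difference was 0.30 (95% interval 0.06 to 0.54, adjusted p = 0.142). Among the alternatives tried, it passed the threshold in fl/fl only with a block for replicate number within the genotype (adjusted p = 0.0473) or without effector replicate 3 (adjusted p = 0.0271).

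Among the PEST-type phosphatases, Ptpn22 (Lyp/PEP; chr3:103856575-103912252, plus strand), which works with the kinase Csk against Lck and ZAP-70, was called in +/+ and fl/+. It was at 158, 184 and 125 CPM in resting +/+ libraries and 325, 397 and 248 CPM in effector ones, a log2 change of 1.05 (SE 0.19, adjusted p = 0.000624). In fl/+ it went from 135, 131 and 133 to 326, 214 and 301 CPM, a change of 1.08 (SE 0.19, adjusted p = 0.00051). In fl/fl the libraries were at 146, 131 and 136 against 253, 152 and 226 CPM, and the difference of 0.61 (SE 0.19) had an adjusted p of 0.061. With the replicate number as a block it was 0.60 (adjusted p = 0.0492). No genotype had an overlap between states. The other members of this group, Ptpn12 and Ptpn18, were not called in any comparison, with lowest adjusted p of 0.413 and 0.203.

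The SH2-domain phosphatases differed from each other. Ptpn11 (SHP-2; chr5:121130533-121191397, minus strand) was at 44.8, 28.7 and 28.0 CPM in resting +/+ libraries and at 66.6, 71.2 and 59.0 CPM in effector ones. It rose by 0.93 (SE 0.23, adjusted p = 0.00779). In fl/+ it was at 25.8, 36.1 and 37.0 CPM against 49.0, 40.6 and 39.3 CPM, and in fl/fl at 39.3, 29.5 and 29.7 CPM against 56.3, 26.8 and 35.6 CPM, and neither was called. Ptpn6 was at 411, 418 and 466 CPM in resting fl/+ libraries and 347, 333 and 333 CPM in effector ones, and it fell by 0.35 (SE 0.11, adjusted p = 0.0263). That call was lost in each of the 6 fits that left out 1 library (adjusted p 0.052 to 0.126) and on FPKM (0.0736). In fl/fl Ptpn6 was at 402, 477 and 428 against 307, 362 and 379 CPM (log2 difference -0.32, adjusted p = 0.0824, and 0.0209 with the block within genotype). In +/+ it was at 388, 448 and 325 against 325, 336 and 314 CPM, and the states overlapped (-0.25, adjusted p = 0.12).

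The close relatives Ptpn1 (PTP1B) and Ptpn2 (TC-PTP), which act on JAK kinases and STAT proteins, moved in opposite directions, each by a small amount. Ptpn1 was at 190, 194 and 174 CPM in resting +/+ libraries and at 246, 237 and 221 CPM in effector ones, a rise of 0.34 (SE 0.087, adjusted p = 0.0101). In fl/+ it rose by 0.29 (SE 0.086, adjusted p = 0.0239), from 187, 177 and 193 to 230, 219 and 234 CPM. The +/+ call was lost without effector replicate 1 (adjusted p = 0.0601) or resting replicate 3 (0.0576), and the fl/+ call without resting replicate 1 or 2 or effector replicate 1 or 3 (0.0627 to 0.0895). In fl/fl it was at 166, 192 and 196 against 213, 201 and 220 CPM (0.19, 95% interval 0.01 to 0.38, adjusted p = 0.22). Ptpn2 was at 133, 152 and 135 CPM in resting fl/+ and at 108, 108 and 105 CPM in effector fl/+ libraries, a fall of 0.39 (SE 0.092, adjusted p = 0.00582). In +/+ it was at 150, 133 and 131 against 111, 119 and 118 CPM (-0.26, adjusted p = 0.0673, and 0.049 with the replicate number as a block). In fl/fl Ptpn2 was at 138, 141 and 129 against 127, 127 and 109 CPM and the difference was not called. Ptpn2 also lost its fl/+ call on the deposited FPKM (-0.13 against -0.39 on counts, adjusted p = 0.405 with limma-trend and a pseudocount of 1). The median change of all genes on that scale was 0.08. Why the Ptpn2 call was lost was not tested.

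Ptpn13, a large phosphatase with FERM and PDZ domains, and Ptpn9, which binds lipids through a Sec14 domain, were called in fl/+. Ptpn13 was at 30.9, 16.9 and 27.6 CPM in resting and 98.1, 52.7 and 85.7 CPM in effector fl/+ libraries, a rise of 1.63 (SE 0.41, adjusted p = 0.0081). In +/+ it was at 26.8, 40.8 and 30.3 against 81.1, 84.4 and 53.8 CPM, a difference of 1.18 (adjusted p = 0.0543, and 0.0222 with the replicate number as a block). In fl/fl it was at 32.7, 9.36 and 17.4 against 73.6, 16.4 and 36.8 CPM. There the states overlapped, although effector exceeded resting within each of the 3 numbers by 2.25, 1.75 and 2.12 times, and the adjusted p was 0.137 without a block and 0.000238 with the block within genotype. Ptpn9 was at 2.58, 3.14 and 6.09 CPM in resting and 7.10, 12.4 and 14.2 CPM in effector fl/+ libraries (1.58, SE 0.38, adjusted p = 0.00679, and 0.0649 without resting replicate 1). In the other genotypes its states overlapped.

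The atypical DUSP members lack the kinase-docking domain of the classical ones. Dusp14 (MKP-6; chr11:84048033-84069256, minus strand), known as a negative regulator of T cell receptor signals, was barely detected in resting cells. It had 3, 4 and 3 counts over the resting +/+, fl/+ and fl/fl groups, and its resting libraries reached at most 1.18 CPM. In effector cells it was at 4.43, 6.86 and 4.05 CPM in +/+, at 7.10, 6.20 and 8.45 CPM in fl/+ and at 2.5, 3.01 and 4.82 CPM in fl/fl. No resting library reached any effector library of its genotype. The pooled ratio was 14.4 in +/+ (95% counting interval 4.61 to 72.3, adjusted p = 0.00212), 16.9 in fl/+ (6.41 to 63.3, adjusted p = 0.000598) and 9.68 in fl/fl (3.01 to 49.6, adjusted p = 0.0203). The fl/fl call was lost in 3 of the 6 fits that left out a library, with adjusted p of 0.0868 without resting replicate 2, 0.0813 without resting replicate 3 and 0.0565 without effector replicate 3.

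Dusp22 (JKAP), which acts on Lck and on the JNK pathway, was at 3.54, 3.64 and 2.76 CPM in resting and 6.53, 8.96 and 6.63 CPM in effector +/+ libraries. Its rise of 1.11 (SE 0.37, adjusted p = 0.0482) was lost in all 6 fits without 1 library (adjusted p 0.0719 to 0.149). Of 15 alternatives, the +/+ call held in 5, among them both fits on FPKM, and was lost in 10. Its levels overlapped between states in fl/+ (5.59, 2.36 and 1.87 against 5.45, 5.17 and 4.34 CPM) and in fl/fl (5.06, 4.32 and 4.42 against 5.58, 4.02 and 4.22 CPM). In fl/+ the difference of 0.49 on counts had an adjusted p of 0.417. On FPKM with a pseudocount of 1 it was 0.72 and called (limma-trend adjusted p = 0.0196). Dusp11, an RNA triphosphatase despite its family name, was the member that fell in +/+. It was at 245, 245 and 236 CPM in resting and 199, 170 and 200 CPM in effector libraries (-0.35, SE 0.11, adjusted p = 0.0283). In fl/+ it fell by 0.35 (adjusted p = 0.0249), from 272, 233 and 237 to 213, 195 and 174 CPM, and in fl/fl it was at 253, 254 and 233 against 172, 224 and 195 CPM (-0.33, adjusted p = 0.0724, and 0.0219 with the block within genotype). On FPKM neither of its calls remained (adjusted p = 0.145 in +/+ and 0.154 in fl/+). The +/+ call was also lost without replicate 1 or 2 of either state (adjusted p 0.0524 to 0.149), and the fl/+ call without resting replicate 1 or effector replicate 2 or 3 (0.0636 to 0.163).

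Among the classical MAP kinase phosphatases 2 were called. Dusp4 (chr8:34807610-34819894, plus strand), a nuclear phosphatase of ERK and JNK, was at 14.9, 18.6 and 16.9 CPM in resting +/+ libraries and at 30.8, 29.5 and 20.3 CPM in effector ones (0.69, SE 0.23, adjusted p = 0.0477). In fl/fl it went from 8.93, 12.2 and 7.66 to 22.1, 14.1 and 18.1 CPM (0.94, SE 0.25, adjusted p = 0.0274). These states did not overlap. With the replicate number as a block the adjusted p in +/+ was 0.0503, and the +/+ call was lost without any library of that genotype except effector replicate 3 (adjusted p 0.0605 to 0.196). The fl/fl call was lost without replicate 1 or 3 of either state (0.0528 to 0.23). In fl/+ it was at 17.4, 22.4 and 24.8 against 34.5, 23.0 and 31.4 CPM, with an overlap (0.49, adjusted p = 0.141).

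Dusp10 (MKP-5), a phosphatase of JNK and p38, was at 69.6, 58.5 and 44.0 CPM in resting and 38.1, 37.5 and 28.5 CPM in effector fl/+ libraries. It fell there by 0.74 (SE 0.20, adjusted p = 0.0122), and the adjusted p was 0.114 without resting replicate 1, 0.0793 without effector replicate 3 and 0.0721 on FPKM. In +/+ Dusp10 was at 60.5, 48.9 and 52.4 against 37.5, 40.6 and 39.1 CPM, apart between states, with a difference of -0.48 (adjusted p = 0.122, and 0.0333 with the replicate number as a block). In fl/fl the states overlapped, at 66.0, 50.4 and 40.6 against 51.1, 46.5 and 30.2 CPM. Dusp6, the cytoplasmic ERK phosphatase that ERK induces, was at 37.8, 35.3 and 40.8 against 64.4, 41.6 and 55.7 CPM in fl/+ (0.52, adjusted p = 0.0657, and 0.0254 with the replicate number as a block). In +/+ it was at 48.1, 42.9 and 37.0 against 59.6, 47.5 and 51.6 CPM and in fl/fl at 39.0, 41.4 and 29.7 against 65.9, 41.2 and 45.8 CPM.

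**Figure D3:**
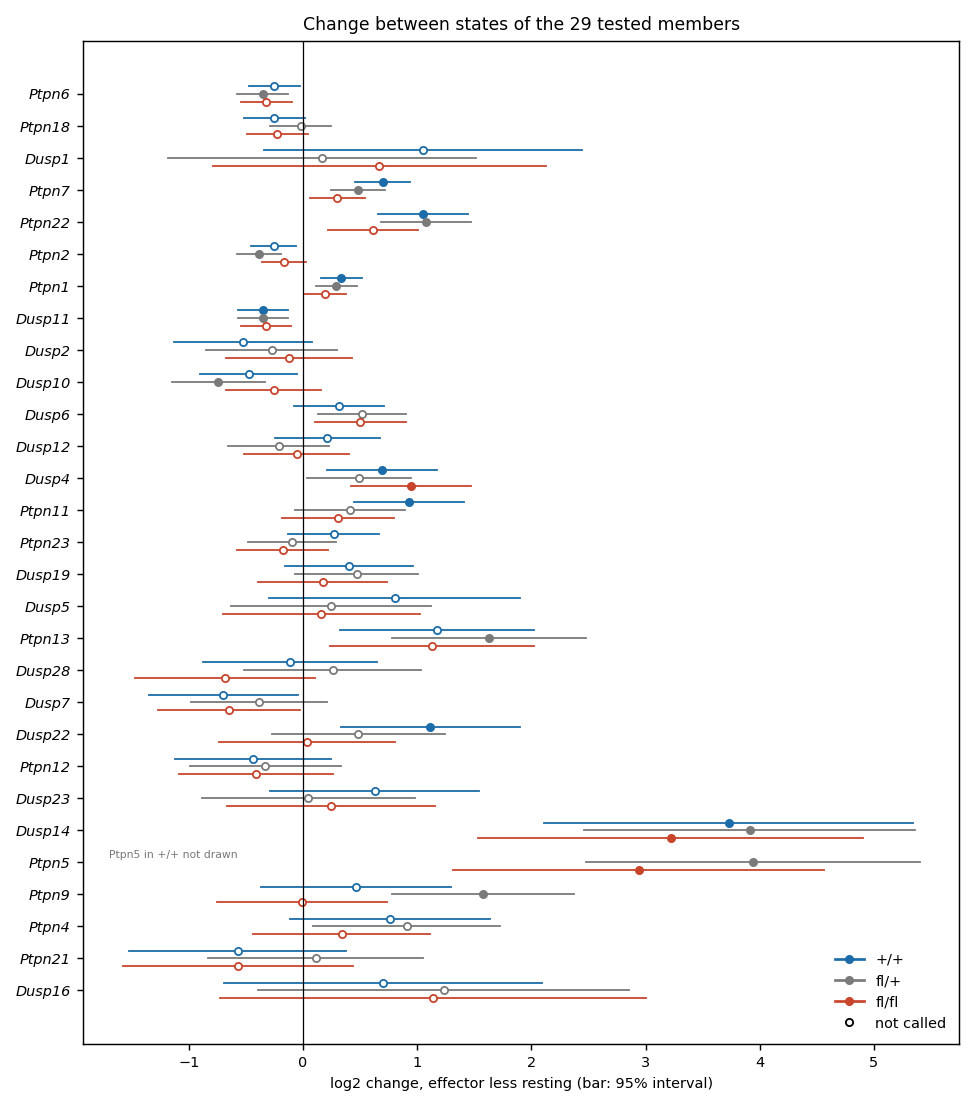
Log2 change from resting to effector cells of the 29 tested members in +/+ (blue), fl/+ (grey) and fl/fl (red). Bars are 95% intervals derived from the F statistic of the edgeR fit, and filled points have an adjusted p under 0.05. Dusp14 and Ptpn5 lie farthest to the right, and the fitted change of Ptpn5 in +/+ is left out because its resting libraries hold no count.

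Dusp1 (MKP-1; chr17:26505591-26508472, minus strand), an immediate early gene that inactivates p38, JNK and ERK, varied more between libraries of a group than between groups. In resting cells it was at 199, 123 and 65.4 CPM in +/+ libraries 1, 2 and 3, at 430, 87.6 and 49.2 CPM in fl/+ and at 103, 49.7 and 55.4 CPM in fl/fl. In effector cells it was at 392, 300 and 116 CPM in +/+, at 412, 128 and 111 CPM in fl/+ and at 201, 59.9 and 57.9 CPM in fl/fl. The library with number 1 was the highest in all 6 groups. In a test of the replicate number itself, made after these values were seen, Dusp1 was the 1 tested member called (1.65% of all genes were), at 2.48 times the level of number 2 and 3.66 times that of number 3 (edgeR adjusted p = 0.000316). Dusp10 followed with an adjusted p of 0.075 and was highest under number 1 in 5 groups.

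In the fit without the number, Dusp1 was not called between states in +/+ (1.05, SE 0.67, adjusted p = 0.322). Within each number, effector exceeded resting in +/+ by 1.97, 2.43 and 1.78 times. With the number as a block the change was 1.07 (adjusted p = 0.0157). The ratios were less even in fl/+ (0.958, 1.46 and 2.26) and in fl/fl (1.95, 1.21 and 1.05), where the block gave changes of 0.37 (adjusted p = 0.412) and 0.44 (adjusted p = 0.481). Between genotypes in effector cells, the fl/fl libraries held 0.512, 0.200 and 0.499 of the +/+ level of the same number, a difference of -1.29 without the block (adjusted p = 0.346) and -1.46 with it (adjusted p = 0.00925). In resting cells these ratios were 0.519, 0.403 and 0.847 and the difference passed the threshold in neither fit.

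Genes of the immediate early and dissociation list, which also holds heat shock genes, varied by number in different ways. Of the 14 tested, 3 were highest under number 1 in at least 4 groups and none in all 6. The 3 were Nr4a1 (5 groups, adjusted p = 0.0609), Btg2 (4 groups, adjusted p = 0.0755) and the heat shock gene Dnajb1 (4 groups, adjusted p = 0.154). Those called between numbers were Junb, Ier2 and the heat shock gene Hspa8, each highest under number 2 in 4 groups. Fos, a subunit of AP-1, was at 39.5, 93.4 and 14.2 CPM in resting +/+ libraries 1, 2 and 3 and at 252, 46.3 and 24.4 CPM in resting fl/+ libraries, and Fos was highest under number 1 in 2 groups, under number 2 in 3 and under number 3 in 1. For Jun these counts were also 2, 3 and 1. Their tests of the number had adjusted p of 0.196 and 0.175. The summed list of 15 immediate early and dissociation genes spanned 3383 to 7784 CPM over the 18 libraries, with the highest sum in resting fl/+ library 1, where Dusp1, Fos and Jun were all at their highest. Its part in the Dusp1 values was not tested.

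**Figure D4:**
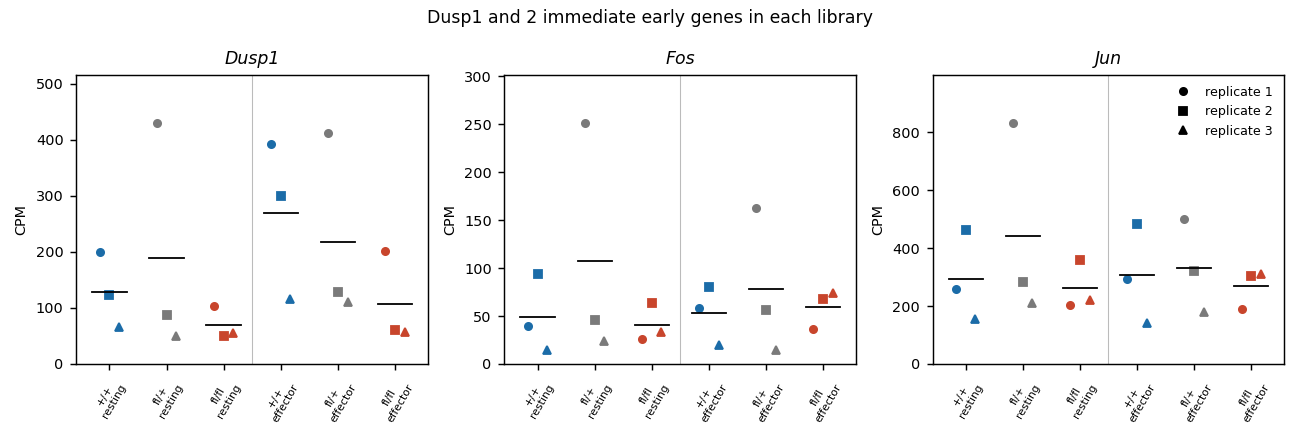
CPM of Dusp1, Fos and Jun in each of 18 libraries by group, with a symbol for each replicate number and a line at the mean of 3. The circles of replicate 1 are the highest Dusp1 points in all 6 groups, whereas Fos and Jun have their highest point under different numbers.

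The genotype comparisons addressed whether these phosphatases differ with the floxed allele. No member was called in any of them in the fit without the replicate number. The share of all genes called was 0.696% between resting fl/fl and +/+ cells, 2.8% between effector fl/fl and +/+ cells, 0.0847% between resting fl/+ and +/+ cells and 0.00941% between effector fl/+ and +/+ cells. Between fl/fl and fl/+ it was 0.0282% in resting and 0.677% in effector cells. At an unadjusted p under 0.05 there were 6, 7, 2, 2, 4 and 6 members in the order given, set against 8.21%, 17.2%, 6.29%, 5.47%, 4.83% and 11.8% of all genes. The comparisons against +/+ share the +/+ libraries, and those of fl/fl share the fl/fl libraries.

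Between effector fl/fl and +/+ cells, with the replicate number as a block, 5 members were called, 1 higher and 4 lower in fl/fl, in a fit that called 5.18% of all genes. The proliferation list had sums of 125, 121 and 334 CPM in +/+ and 341, 481 and 502 CPM in fl/fl effector libraries 1, 2 and 3. The fit without the block called 2.8% of all genes. There 2 of 9 proliferation genes were called higher in fl/fl (median log2 difference 1.29), and 2 of 6 genes of the Treg list were called lower. The part of these lists in the member differences was not tested. The 1 higher was Dusp2 (PAC-1; chr2:127336159-127338377, plus strand), a nuclear MAP kinase phosphatase of activated lymphocytes. It was at 21.9, 16.3 and 17 CPM in +/+, at 19.5, 19.4 and 24.4 CPM in fl/+ and at 35.6, 37.8 and 35.6 CPM in fl/fl effector libraries. All 3 fl/fl libraries were above all other effector libraries. The difference from +/+ was 0.95 (95% interval 0.36 to 1.54, adjusted p = 0.072) and 0.99 with the block (adjusted p = 0.0344). DESeq2 gave the same size with an adjusted p of 0.0366. In resting cells Dusp2 was at 39.7, 21.0 and 18.5 CPM in +/+, 34.0, 20.4 and 19.7 CPM in fl/+ and 37.2, 27.0 and 54.2 CPM in fl/fl, and these overlapped.

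The 4 that were lower in fl/fl with the block were Dusp1, Ptpn5, Ptpn11 and Ptpn22. Ptpn5 effector libraries of fl/fl held 0.528, 0.159 and 0.226 of the +/+ level of the same number, a difference of -1.52 (adjusted p = 0.125) and -1.68 with the block (adjusted p = 0.0438). Ptpn11 differed by -0.69 (adjusted p = 0.105) and -0.72 with the block (adjusted p = 0.0446), with no overlap between the groups. This difference was not particular to fl/fl. The effector fl/+ libraries of Ptpn11 also lay below all +/+ ones, by -0.60 without the block (edgeR adjusted p = 0.676), and overlapped those of fl/fl. Ptpn22 differed by -0.62 (adjusted p = 0.0756; with the block 0.049), and its groups overlapped. Ptpn7, not called with the block, was at -0.35 (adjusted p = 0.109).

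Effector fl/fl replicate 1 was nearest to the +/+ libraries for several members. It held 8.46 CPM of Ptpn5, 56.3 of Ptpn11 and 73.6 of Ptpn13, where replicates 2 and 3 held 2.68 and 2.41, 26.8 and 35.6, and 16.4 and 36.8 CPM. Without it, and without the block, 5 members were called lower in fl/fl than in +/+, and the share of all genes called was 6.05%, up from 2.8%. The 5 were Ptpn7 (-0.48, adjusted p = 0.0196), Ptpn11 (-1.09, 0.00703), Ptpn13 (-1.54, 0.0292), Ptpn22 (-0.78, 0.027) and Ptpn5 (-2.48, 0.0262). Leaving out any other library of this comparison gave at most 1 member call, that of Ptpn22 without +/+ effector replicate 3. Effector fl/fl replicate 1 was picked out by these same values, so the calls without it are no test of a difference. In the same library the CD8 or NK markers summed to 110.4 CPM, against 54.9 and 51.9 CPM in replicates 2 and 3, and proliferation markers summed to 341 CPM against 481 and 502. Their part in these differences was not tested.

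Dusp5, a nuclear phosphatase specific for ERK, was low and had its lowest libraries in +/+. In resting cells it was at 2.78, 2.43 and 1.58 CPM in +/+, at 3.22, 11 and 5.62 CPM in fl/+ and at 5.95, 7.20 and 10.0 CPM in fl/fl. In effector cells it was at 3.79, 6.33 and 2.58 CPM in +/+, at 4.29, 9.30 and 9.41 CPM in fl/+ and at 8.27, 9.71 and 7.84 CPM in fl/fl. The fl/fl and +/+ libraries did not overlap in either state. The difference was 1.73 in resting cells (95% interval 0.71 to 2.74, adjusted p = 0.136) and 1.08 in effector cells (0.14 to 2.02, adjusted p = 0.208), and neither was called. Exons of Dusp5 share 547 bases with an antisense gene of the annotation. Such overlaps on the opposite strand also touch Ptpn6 (195 bases), Ptpn9 (170), Ptpn13 (70), Dusp11 (45) and Dusp1 (11), as well as Dusp12 (891 and 474), Ptpn18 (492) and Dusp28 (58). Dusp19 shares 131 bases with Nup35 on the same strand. With no stated strand setting the reads of each pair on opposite strands cannot be told apart.

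Dusp4 was lower in fl/fl than in the other genotypes in resting cells, with no overlap, as the values above show. The difference was -0.81 from +/+ (95% interval -1.34 to -0.28, adjusted p = 0.242) and -1.15 from fl/+ (-1.67 to -0.63, adjusted p = 0.233). In effector cells it was -0.55 from +/+ with an overlap (adjusted p = 0.204) and -0.70 from fl/+ without one (adjusted p = 0.165). Ptpn9 was at 4.81, 6.47 and 2.36 CPM in resting +/+ and at 9.22, 7.92 and 8.54 CPM in resting fl/fl libraries (0.91, adjusted p = 0.516).

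**Figure D5:**
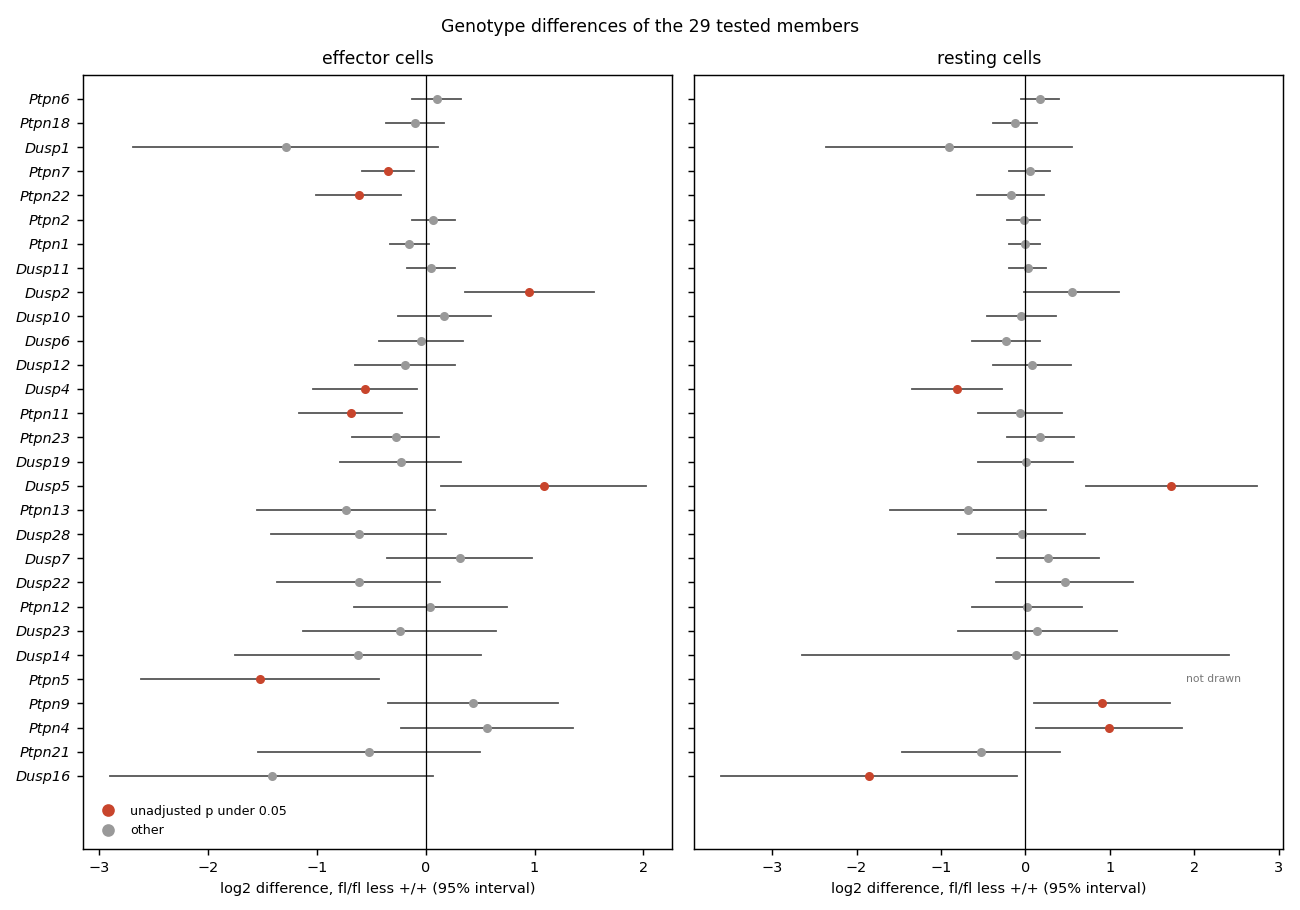
Log2 difference between fl/fl and +/+ of the tested members in effector cells (left) and resting cells (right), with bars for the 95% interval and red points for an unadjusted p under 0.05. No member passed an adjusted p of 0.05 in these fits, and Ptpn5 in resting cells is not drawn because the +/+ libraries hold no count.

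Whether the change between states itself differed between genotypes was tested with an interaction term. No member and 0% of genes were called for fl/fl against +/+, and no member and 0.0188% of genes for fl/+ against +/+. At an unadjusted p under 0.05 there were 2 members for fl/fl (Ptpn5 and Ptpn7) against 8.97% of all genes, and 1 for fl/+ (Ptpn5) against 3.24%. The Ptpn7 term was -0.40 (95% interval -0.74 to -0.05, adjusted p = 0.481). The Ptpn5 term (adjusted p = 0.427 for fl/fl) rests on resting +/+ libraries without a count, so its fitted size is not given. The smaller number of members called between states in fl/fl is therefore no test that their changes were smaller there.

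Besides Dusp1, Dusp2, Dusp5 and Dusp6, described above, 11 tested members had no call in the fit without the replicate number. Ptpn18, Ptpn23 and Dusp12 had medians of 226, 34.4 and 20.2 CPM. Ptpn4, Ptpn12, Ptpn21, Dusp7, Dusp16, Dusp19, Dusp23 and Dusp28 had medians of 1.93 to 13.1 CPM. Their lowest adjusted p over the 11 comparisons ran from 0.125 for Ptpn4, a FERM-domain phosphatase, to 0.56 for Dusp12.

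Genes around the phosphatases gave a mixed picture between states. Of 26 tested members of a list of other tyrosine and dual-specificity phosphatases, 7 were higher and 3 lower in +/+ effector cells, 7 and 3 in fl/+ and 5 and 2 in fl/fl. The receptor type phosphatases Ptprs (1.87, adjusted p = 0.00034), Ptprv (3.15, adjusted p = 3.6e-05) and Ptprj (1.58, adjusted p = 0.006) rose in +/+, as did Ubash3b (1.08, adjusted p = 0.00015), a phosphatase that acts on ZAP-70. Ptpra, an activator of Src kinases, fell by 0.75 (adjusted p = 0.0088). The median log2 change of the list in +/+ was 0.03, near the -0.01 of all genes. Of 14 tested feedback inhibitors of RAS and ERK, none was higher and 4 were lower in +/+, 3 and 6 in fl/+ and none and 2 in fl/fl. Over all genes, the share called was 16% in +/+, 16.3% in fl/+ and 6.34% in fl/fl. Rasa3, a RAS GTPase activator, fell by 1.33 in +/+ (adjusted p = 3.9e-05), and Dgka, which removes diacylglycerol, fell by 0.65 (adjusted p = 0.00022).

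Of 31 tested genes of the MAP kinase cascades, 3 were higher and 5 lower in +/+ effector cells, none and 3 in fl/+ and none and 1 in fl/fl. The share of all genes called, for this and the following lists, was 16%, 16.3% and 6.34% in that order, above the list's share in fl/+ and fl/fl. Mapk11, a p38 kinase, fell by 1.02 (adjusted p = 0.00069) in +/+. Of 26 tested partners and substrates of the PTPNs, 4 were higher and 3 lower in +/+, 4 and 6 in fl/+ and 1 and 3 in fl/fl. Pdcd1 (PD-1), the receptor that recruits Ptpn11, rose by 2.42 (adjusted p = 0.00014), and Pag1, the membrane anchor of Csk, fell by 0.87 (adjusted p = 9.8e-05) in +/+. Of 14 tested immediate early and dissociation genes, none was called in +/+, 2 were lower in fl/+ and 1 was lower in fl/fl.

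In effector cells, fl/fl against +/+ gave 4 calls over the lists of pathway genes other than immediate early and dissociation ones. They were none of 31 MAP kinase cascade genes, 2 of 14 feedback inhibitors, 1 of 26 other phosphatases and 1 of 26 PTPN partners. This comparison called 2.8% of all genes. Ptpra (0.76, adjusted p = 0.037), Rasa3 (0.94, adjusted p = 0.0079) and Dgka (0.44, adjusted p = 0.029) were higher in fl/fl, and each of them was among those lower in effector than in resting +/+ cells, a comparison that uses the same +/+ effector libraries. Jak3, the kinase of the common gamma chain, was lower (-0.43, adjusted p = 0.028). Of the 14 tested immediate early and dissociation genes 1 was called, Egr1, which was lower (-0.53, adjusted p = 0.049).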

How the data were processed

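RNA was measured in 18 libraries of sorted Treg cells. Per the submitters' processing notes, the tools used include STAR 2.6.0, bcl2fastq 2.17.1.14 and RSEM 1.2.8, and the build was mm10. No label or header names the annotation or the strand setting. The authors deposited expected counts per gene and library from RSEM, which were the input of the main tests, and FPKM values, used for levels per length and in alternatives. A share of 29.4% of expected counts above 0 was not whole (tolerance 0.005), and all were rounded.

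In R 4.3.3, edgeR 4.0.16 fitted 6 group means to all libraries (TMM factors 0.940 to 1.06, filterByExpr, 10630 genes, common dispersion 0.0215). Differences are log2 values from the quasi-likelihood F test with Benjamini-Hochberg adjustment over all genes tested, called at 0.05. The SE was derived from that test, as the absolute log2 change divided by the square root of F. The 95% intervals of log2 changes are a t quantile times this SE on either side. Library totals had a median of 3154375.5, the ribosomal gene Rn45s took 10.9 to 16.4% of counts, and intervals on pooled counts (exact binomial, 95%) and the level of 3 counts cover counting error only. Replicates differed beyond counting error, with 3.51 to 7.02 as the chi-square per gene.

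Whether the batch number of the labels pairs libraries was checked in residuals. The 9 pairs of one genotype and number had correlations of 0.14 to 0.34, all over 0.1, and 36 pairs of one number and other genotype had a mean of 0.07. It enters 2 fits, as a block over all libraries and a block within genotype. Alternatives were RLE scaling, no filter, only the groups compared, library sizes without Rn45s, DESeq2 1.42.0, limma-trend (limma 3.58.1) on log2 FPKM with pseudocounts of 1 and 0.1, and each library left out.

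Named genes were the 14 members called in any of 11 comparisons and a fixed list of 12 members known from T cells, 18 in all, of which Dusp1, Dusp2, Dusp5 and Dusp6 had no call. Pathway genes were named from called members of each list. The members, lists and rules were chosen with earlier results of these data known. Promoters came from RefSeq (GRCm38.p6, 33 of 41 members matched). Only the edgeR test between states in +/+ was tried on simulated counts, drawn with dispersions fitted to these data. Values of the targeted gene are not reported here.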

Additional observations from a re-analysis of the deposited data

How the results depend on the processing

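Of 23 calls of a member between states, 10 held in each alternative, those of Ptpn5, Ptpn7, Ptpn22 and Dusp14 in +/+ and fl/+, Ptpn11 in +/+ and Ptpn13 in fl/+, and no called or near member changed direction. In effector fl/fl against +/+ cells, where no member was called, there were 6 calls with no filter on low counts, 5 with the replicate block, 2 with DESeq2, 1 with the groups compared alone and 1 on log2(FPKM + 1). Calls over all genes moved too, from 298 to 830, 551, 455, 154 and 395. Between states in fl/fl the count of 3 became 6 without the filter, 8 with the replicate block within genotype (6 higher, 2 lower) and 0 with the groups compared alone. Over all genes the calls there went from 674 to 1012, 1071 and 349. The replicate block gave 12 calls in +/+ and 12 in fl/+ (within genotype 11 and 12), against 9 and 11, and 4 in fl/fl. It called 1980, 2039 and 836 of all genes in +/+, fl/+ and fl/fl, against 1700, 1732 and 674. Within genotype the block called 2175 of all genes in +/+ and 2265 in fl/+. Without the filter there were also 3 calls in resting fl/fl against +/+, 2 in resting and 4 in effector fl/fl against fl/+, and 1 each in resting and in effector fl/+ against +/+ and in both interactions. Over all genes that fit called 315, 94, 488, 219 and 176 in these comparisons, and 246 and 31 in the interactions of fl/fl and fl/+. With the filter these numbers were 74, 3, 72, 9, 1, 0 and 2. The unfiltered fit gave Dusp1 an adjusted p of 3.65e-15 between states in +/+ despite its spread between libraries, and the cause was not tested in any of these.

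Leaving out 1 library in turn gave 5 to 9 calls between states in +/+, the lowest without effector replicate 1, and 6 to 10 in fl/+, the lowest without resting replicate 1. In fl/fl it gave 0 to 6, with 0 without resting replicate 3 and 6 without effector replicate 2. Over all genes the same fits called 1215 to 1589 in +/+, 1092 to 1601 in fl/+ and 267 to 791 in fl/fl. In effector cells fl/fl against +/+ gave 0 to 5 and fl/fl against fl/+ 0 to 1, both highest without fl/fl effector replicate 1. Over all genes these 2 comparisons gave 31 to 648 and 3 to 310 calls. The other comparisons gave 0 member calls throughout. Members near 3 counts per library could not be judged at this depth.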
